A study of Mus musculus with 2 samples.

Results

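Among the alveolar type 2 (AT2) cells of the IL-1β-treated organoid library, 439 cells were chosen by their measured levels of Cxcl10, Cd14 and Tnfaip2. They were 26.6% of the 1650 AT2 cells of that library (95% binomial interval 24.5 to 28.8, Clopper-Pearson), 14.3% of its 3066 cell barcodes, and 439 of the 5167 barcodes in the series. The study set organoids grown with IL-1β against control organoids given PBS, with 1 single-cell library each (41220175 UMIs in 3066 barcodes with IL-1β, 33965848 in 2101 in control; a UMI, or unique molecular identifier, marks 1 captured mRNA molecule). AT2 cells came from C57BL/6 mice carrying SPC-CreERT2 and R26R-tdTomato, in which the Sftpc promoter drives a tamoxifen-dependent Cre that labels AT2 cells, and in both conditions they were grown in Matrigel together with lung stromal cells. The methods describe young adult mice for most of the experiments, and the number pooled per organoid library is not given in the sources used here. With 1 library per condition there was no replicate, so no test was made: every interval below covers counting error only, and the treatment cannot be told apart from the library. The 2 libraries shared 11 barcodes, 1 of them a member's.

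The cells were picked in 2 steps. AT2 cells had more UMIs from 5 epithelial genes than from 4 stromal genes, at most 2 UMIs of the AT1 genes Hopx, Rtkn2 and Akap5, at least 1% of their UMIs from Sftpc, and a Krt8 score (mean log level of Krt8, Krt19, Cldn4, Sprr1a and Sfn) below the top 15%. Each AT2 cell was then scored on 4 sets of 3 genes, and the 439 members were those whose highest score was that of Cxcl10, Cd14 and Tnfaip2. The other 1211 AT2 cells held 330 highest on Cd177, Ceacam10 and Cxcl3, 406 highest on Retnla, Gstm1 and Slc7a11, and 475 highest on a set that includes Fgl1 and Trf, called here the Cd177/Ceacam10, Retnla/Gstm1 and Fgl1/Trf cells. The genes and the contrast with these 1211 cells were therefore used to choose the members, and all values for that contrast are a description. The 743 AT2 cells of the control library, kept by the same first step, were not used to choose them. The top 15% of the Krt8 score was taken within each library, so the limit was 0.906 with IL-1β and 0.573 in control.

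CD14 is a surface and secreted co-receptor that hands bacterial lipopolysaccharide to Toll-like receptor 4, and TNFAIP2 is a protein induced by TNF and IL-1 through NF-κB. CXCL10 is a chemokine that draws CXCR3-bearing lymphocytes and is classically induced by interferons. IL-1β acts through its receptor and MYD88 to free NF-κB, whose targets include chemokines, adhesion molecules and its own inhibitors. In the lung, AT2 cells make surfactant, give rise to alveolar type 1 (AT1) cells, and take part in innate defense.

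Of the 3 genes that chose the cells, Cd14 was found in nearly all members, Tnfaip2 in 230 and Cxcl10 in 12. Levels of these genes above those of the other IL-1β AT2 cells follow from the choice and are given as a description. Cd14 was found in 438 of the 439 members, with a median of 7.53 UMIs per 10,000 (lowest 0, highest 112). The other 1211 IL-1β AT2 cells had a median of 2.47 (0 to 29.8), and the 743 control AT2 cells a median of 0 (0 to 12.8). Members and the other cells overlapped in range, but their interquartile ranges, 4.60 to 11.5 in members and 1.29 to 4.64 in the others, barely met. Tnfaip2 was found in 230 members, with a median of 0.582 UMIs per 10,000 (0 to 23.3), whereas the median was 0 in the other IL-1β AT2 cells (0 to 10.2) and in control AT2 cells (0 to 1.11). Summed over cells (CPM, UMIs of a gene per 1000000 UMIs of the group), Cd14 stood at 926 CPM (900 to 953) in members, 357 (348 to 367) in the other IL-1β AT2 cells and 54.8 (50.6 to 59.4) in control AT2 cells. Tnfaip2 stood at 135 CPM (125 to 145), 28.2 (25.5 to 31.0) and 1.45 (0.829 to 2.36) in the same order.

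Cxcl10 was found in 12 members. It was at 31.2 CPM in members, 0.682 in the other IL-1β AT2 cells and 1.27 in control AT2 cells, but 1 cell held 130 of the members' 157 Cxcl10 UMIs (82.8%), and 7 of the 12 held a single UMI. The remaining 4 held 9, 7, 2 and 2 UMIs. After each cell was thinned to 4500 UMIs, Cxcl10 was seen in 1.37% of members (0.503 to 2.95), 0.413% of the other IL-1β AT2 cells (0.134 to 0.961), 0.808% of control AT2 cells (0.297 to 1.75) and 1.46% of the IL-1β cells with more stromal than epithelial UMIs. Before thinning the shares were 2.73% of members, 0.826% of the other IL-1β AT2 cells and 1.88% of control AT2 cells. Since Cxcl10 helped to choose the members, these shares are given as a description. The thinned share of cells with Cd14 was 94.1% in members, 67.9% in the other IL-1β AT2 cells, 20.6% in control AT2 cells and 47.7% in the IL-1β stromal cells. That of Tnfaip2 was 36.9%, 8.92%, 0.673% and 35.7%, respectively. Because the label names Cxcl10 and the data place it in 12 cells, the group is called the Cd14/Tnfaip2 cells here. Leaving Cxcl10 out of the score gave 451 cells, 438 of them members (99.8% of the members and 97.1% of the 451).

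**Figure D1:**
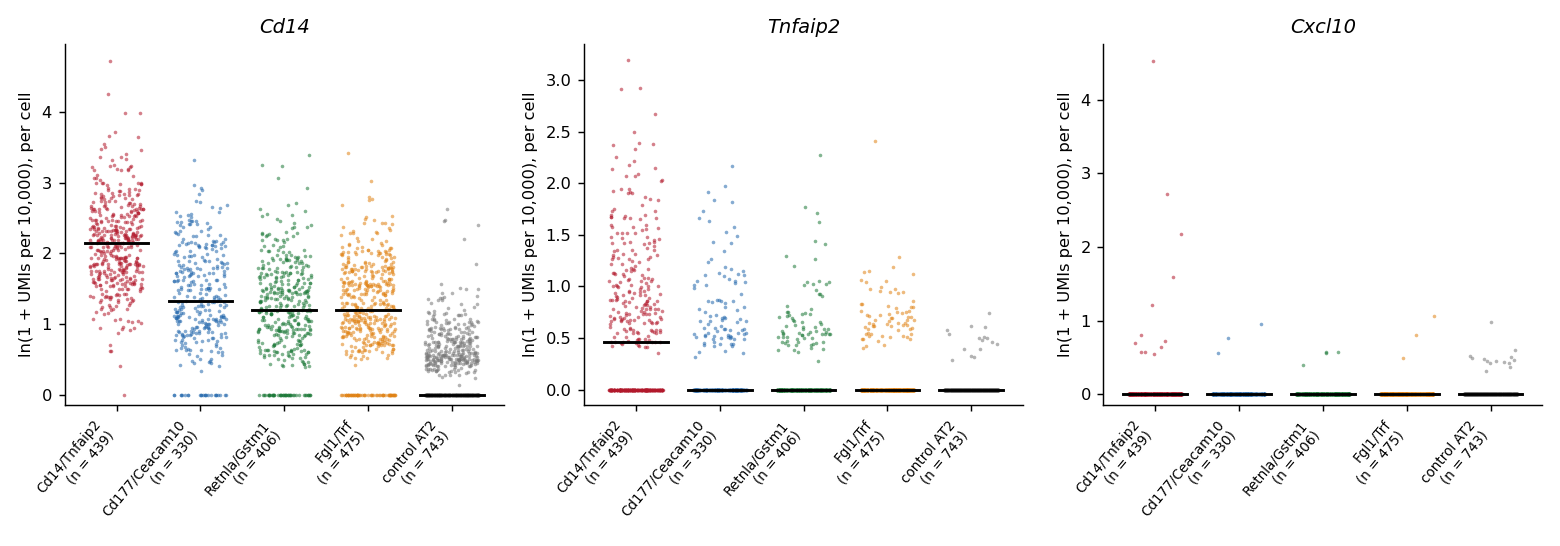
Levels of Cd14, Tnfaip2 and Cxcl10 in single cells (y axis, natural log of 1 plus UMIs per 10,000) for the 4 groups of IL-1β AT2 cells and for control AT2 cells; each point is a cell and each black bar a group median. Cd14 lies highest in the 439 Cd14/Tnfaip2 cells, Tnfaip2 is found in 230 of them, and Cxcl10 is at 0 in all but 12.

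The promoters of Cxcl10 and of several genes described further on carry short matches to the sites that NF-κB and interferon-activated factors bind. The 29 genes looked up were the scored genes, the 15 highest genes and the highest genes of the NF-κB, chemokine and interferon lists. RefSeq windows from 250 bases before to 50 after the annotated start (GRCm38.p6) were used for 23 of these, without Cd14. They were searched on both strands for a κB motif (GGG, any 2 bases, TT, any base, CC) and an interferon-stimulated response element (ISRE; GAAA, any 2 bases, GAAA), letters picked after the windows had been seen. Of the 23, 8 held the κB motif and 5 the ISRE, while over all 32851 windows of that length the shares were 4.79% and 3.44%, and 0.201% held both. The genes came in part from NF-κB and interferon lists and the letters from these windows, so the choice itself favors matches and nothing is read from the higher shares. The 250 bases before the start are shown for 4 genes, namely Cxcl10, which holds both motifs, Tnfaip2, which holds neither, and Tnip3 and Ifit3. The summed levels of the last 2 were higher in members than in the other IL-1β AT2 cells, also without the top 1% of cells for each gene. Cxcl10 (chr5:92348890-92349139, minus strand) has its ISRE at -213 and its κB motif at -103 from the start. Tnip3 (chr6:65590148-65590397, plus strand), for which the RefSeq start lies inside the longer GENCODE gene, has a κB motif at -54, and Ifit3 (chr19:34583279-34583528, plus strand) has ISREs at -156 and -122, these 3 read on the opposite strand. Tnfaip2 lies at chr12:111442411-111442660 (plus strand). Capitals mark the matches, none of which overlap, and a match is letters only, not a site shown to be bound.
Cxcl10: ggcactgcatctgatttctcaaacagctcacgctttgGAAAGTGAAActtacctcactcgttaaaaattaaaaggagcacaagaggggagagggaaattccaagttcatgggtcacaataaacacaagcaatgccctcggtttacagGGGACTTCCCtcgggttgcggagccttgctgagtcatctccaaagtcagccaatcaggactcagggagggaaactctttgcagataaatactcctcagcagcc
Tnfaip2: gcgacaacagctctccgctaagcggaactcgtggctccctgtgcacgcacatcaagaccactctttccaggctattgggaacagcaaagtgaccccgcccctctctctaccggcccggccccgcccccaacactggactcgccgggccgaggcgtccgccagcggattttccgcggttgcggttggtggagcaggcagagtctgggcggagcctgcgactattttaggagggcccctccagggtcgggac
Tnip3: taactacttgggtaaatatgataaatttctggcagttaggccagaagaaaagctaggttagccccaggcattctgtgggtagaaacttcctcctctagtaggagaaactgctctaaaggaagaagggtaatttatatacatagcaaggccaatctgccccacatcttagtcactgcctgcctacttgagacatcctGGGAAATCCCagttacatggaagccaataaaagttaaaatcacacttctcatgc
Ifit3: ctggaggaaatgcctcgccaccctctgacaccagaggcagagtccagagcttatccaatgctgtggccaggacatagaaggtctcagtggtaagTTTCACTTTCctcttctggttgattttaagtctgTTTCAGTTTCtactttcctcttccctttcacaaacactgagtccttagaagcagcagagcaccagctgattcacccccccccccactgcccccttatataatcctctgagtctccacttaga

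The cells bordered the rest with no gap in score, and their scores overlapped those of the rest, since the rule kept cells by which score led. Members' scores ran from -0.545 to 5.75 with a median of 0.771, and 47 members scored below 0. Among the other IL-1β AT2 cells, 374 scored above 0 and 88 above the members' median. The lead of the members over their second score had a median of 0.671, and 171 members led by under 0.5. The member nearest to the limit scored 0.854 against 0.847 for its next set, and the nearest cell outside scored 0.0877 against 0.0884. At the other limits, the lowest Sftpc share of a member was 1.05% of UMIs and the highest share just under the limit 0.976%, while the highest Krt8 score of a member was 0.904 and the lowest score over the limit 0.906. When the scores were computed from the thinned counts, 445 cells were chosen, and 308 of these were members (70.2% of the members and 69.2% of the 445). In control AT2 cells scored on the IL-1β scale, 14 of 743 (1.88%, 1.03 to 3.14) were highest on the 3 genes, with a median score of -1.73. Scored on their own scale, where 1 of the 4 sets has to lead in every cell, 188 (25.3%) were.

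**Figure D2:**
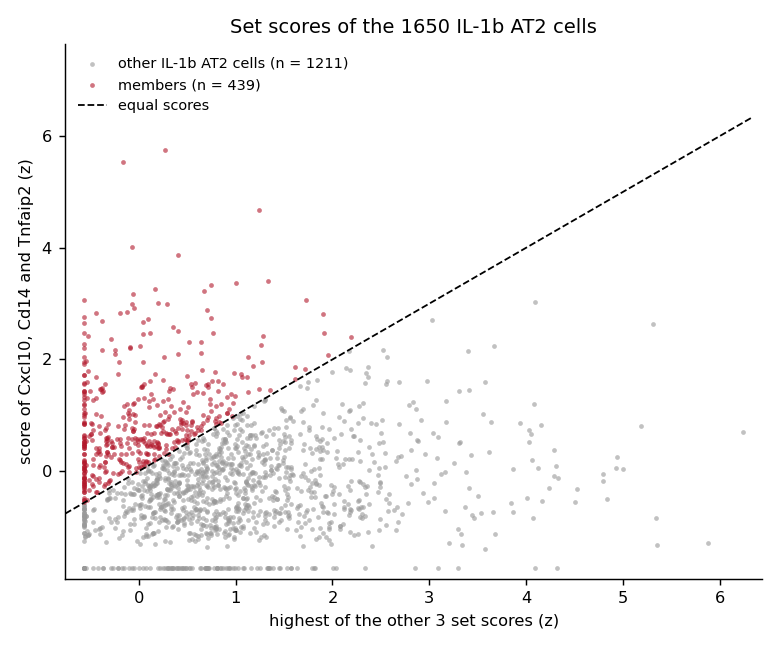
Each point is 1 of the 1650 IL-1β AT2 cells, placed by its highest score on the other 3 gene sets (x axis, z units) and by its score on Cxcl10, Cd14 and Tnfaip2 (y axis, z units). The 439 members lie above the dashed line of equal scores by definition, and they border the other 1211 cells along that line with no gap.

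Of the members, 202 held Cd14 alone among the 3 scored genes, 224 held Cd14 with Tnfaip2, and 5 held all 3. As a description, across the 1650 cells Pearson's r of the log levels was 0.203 for Cd14 with Tnfaip2 (Spearman's rho 0.168), 0.00526 for Cxcl10 with Cd14 and 0.0634 for Cxcl10 with Tnfaip2; these cells share 1 library and its range of depths. When Tnfaip2 was left out of the score, it still stood at 87.5 CPM in the 465 cells chosen and 43.5 in the rest, a ratio of 2.01 (1.78 to 2.27). When Cd14 was left out, it stood at 636 CPM in the 383 cells chosen and 465 in the rest, a ratio of 1.37 (1.31 to 1.43). Of the members, 372 (84.7%) were still chosen without Tnfaip2 and 261 (59.5%) without Cd14. Cd14 is part of a receptor, and the other parts were low. Tlr4, the signaling receptor, was at 8.55 CPM in members, 9.96 in the other IL-1β AT2 cells and 11.1 in control AT2 cells, and its partner Ly96 at 28.0, 22.8 and 15.1 CPM. Of 12 genes of endotoxin and Toll-like receptor signaling with at least 100 UMIs over members and other IL-1β AT2 cells, Cd14 aside, 0 were 1.5-fold higher or lower in members, against 2.2% of all 9202 such genes higher and 1.97% lower. Their median log2 ratio was 0.02, and that of all genes 0.05. Tlr2, the receptor for bacterial lipoproteins and named after its value was seen, was at 8.55, 3.27 and 0.816 CPM.

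The Cd14/Tnfaip2 cells were close in depth to the rest and held the surfactant genes at AT2 levels. Members held a median of 10853 UMIs (4975 to 42762), the other IL-1β AT2 cells 11636 and control AT2 cells 14242, and the shares of mitochondrial UMIs were 4.71%, 4.70% and 4.53%. The Krt8 score, which rises in the damage-associated transient progenitors (DATPs) that AT2 cells pass through in repair, had a median of 0.569 in members, 0.533 in the others and 0.328 in control AT2 cells. The rule capped this score at a lower limit in control (0.573 against 0.906), so the control median is not on equal terms. Sftpc, which the rule used, took a median of 6.85%, 7.11% and 9.80% of the UMIs of a cell. Of 19 AT2 identity genes, 1 was 1.5-fold higher and 1 was 1.5-fold lower in members than in the other IL-1β AT2 cells. Over all 9202 genes, 2.2% were higher and 1.97% lower, so 1 gene each way is near the background. The median log2 ratio of the 19 was -0.10, against 0.05 over all genes. The higher one was Sftpd, the collectin surfactant protein D, at 6375 CPM against 3965 (ratio 1.61, 1.59 to 1.63) and 2355 in control AT2 cells. Surfactant proteins B and A1, encoded by Sftpb and Sftpa1, had ratios of 0.882 and 0.942. The lower one was Lyz1, a lysozyme, at 61.1 CPM against 248 (ratio 0.246, 0.218 to 0.277), or 50.7 against 118 (0.429) without the top 1% of cells in each group, and its close copy Lyz2 was at 28955 CPM against 42103 (0.688, 0.684 to 0.692). How reads were shared between these 2 copies was not tested.

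Most leukocyte and endothelial markers were at 0, while the stromal, neutrophil and airway sums were above those of the other IL-1β AT2 cells. Of 19 leukocyte and macrophage genes, 15 were at 0 in the members, among them Csf1r, Itgam and the C1q genes, and the most abundant, Cd68, was at 39.0 CPM in members and 42.1 in the other IL-1β AT2 cells. Of 7 endothelial genes, 4 were at 0, and the most abundant, Egfl7, was at 39.2 against 42.7 CPM. The 8 neutrophil genes summed to 44.8 against 10.2 CPM, with S100a9, Csf3r and Retnlg at 0 and 37.8 CPM of the sum from Ltf, described below. The 12 stromal genes, none at 0, summed to 1710 CPM in members, 1569 in the others and 30030 in the stromal cells of the same library, and Mgp made up 1380 of the 1710. The 11 airway genes summed to 317 against 229 CPM, with Krt5 and Trp63 at 0 and Cyp2f2 the most abundant at 152. The 11 cycling genes found in the files summed to 17.9, 14.2 and 169 CPM in members, the other IL-1β AT2 cells and control AT2 cells, with Cenpa the most abundant at 5.77 in members. The part of free or foreign RNA in these values was not tested. Sftpc itself had a median of 0.413% of UMIs in the stromal cells and was found in all of them after thinning.

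Against the other IL-1β AT2 cells, 9202 genes had at least 100 UMIs over both groups. Of these, 202 (2.2%) were at least 1.5-fold higher and 181 (1.97%) at least 1.5-fold lower in the Cd14/Tnfaip2 cells, and the median log2 ratio of all was 0.05. The 15 genes ranked highest by the end of the interval nearest to 1, after the rule's own genes were left out, were Bpifa1, Klk10, Rsad2, Ltf, Ifit1, Ccl20, Ccl5, Ifit3, Tnip3, Csf1, AW112010, Iigp1, Nnat, Serpinb9 and Rgs16. They fell into genes held by 1 or 2 cells and genes spread over many.

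A single member carried most of the Bpifa1, Scgb3a1, Ltf and Klk10 RNA. It was the deepest member (42762 UMIs, 4.22% of them Sftpc) and held 1026 of the 1038 UMIs of Bpifa1, an antimicrobial protein of airway secretory cells, 601 of the 652 of Scgb3a1, a secretoglobin of airway cells, 188 of the 190 of the iron-binding defense protein gene Ltf, and 95 of the 96 of the kallikrein Klk10. It also held 36.8% of the members' UMIs of Ccl20, the chemokine for CCR6-bearing lymphocytes and dendritic cells. Whether it is a doublet was not tested, since the doublet caller marked too few barcodes to be used. With the top 1% of cells left out for each gene, Bpifa1 had a ratio of 0.781 in place of 16.1, Scgb3a1 1.09 in place of 2.23 and Ccl20 1.99 in place of 5.37, while Ltf and Klk10 had no UMI left in either group. IL-1β epithelial cells under the Sftpc limit, outside the AT2 cells, held Scgb3a1 at 4657 CPM, Ccl20 at 3492 and Bpifa1 at 741.

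Another member carried most of the Ifit1, Rsad2 and Ccl5 RNA. The cell with 130 Cxcl10 UMIs was the only one in the series with UMIs of Ifnb1, the gene of interferon-β (6 UMIs). It also held 114 of the members' 181 UMIs of Ifit1 and 66 of the 88 of Rsad2, both antiviral effectors, 72 of the 354 of the ubiquitin-like modifier Isg15, 39 of the 238 of Ifit3, and 98 of the 100 of the T-cell chemokine Ccl5. The cell with 9 Cxcl10 UMIs held no Ifnb1 and no Ccl5, but held 50 UMIs of Ifit3, 43 of Isg15, 14 of Ifit1 and 10 of Rsad2. The other 10 members with Cxcl10 held at most 6 UMIs of Isg15 and 2 of Ifit3, and 0 of Ifit1. Neither of the 2 interferon-type cells had a UMI of the leukocyte genes Ptprc or Tyrobp, and their Sftpc shares were 7.22% and 6.41%. Without the 12 members with Cxcl10, the log2 ratio of Ccl5 was -3.20, in place of 2.41. Among AT2 cells outside the members, 10 held Cxcl10, 1 UMI each, and 10 cells at the top of the Krt8 score and 23 over the AT1 limit held it as well.

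**Figure D3:**
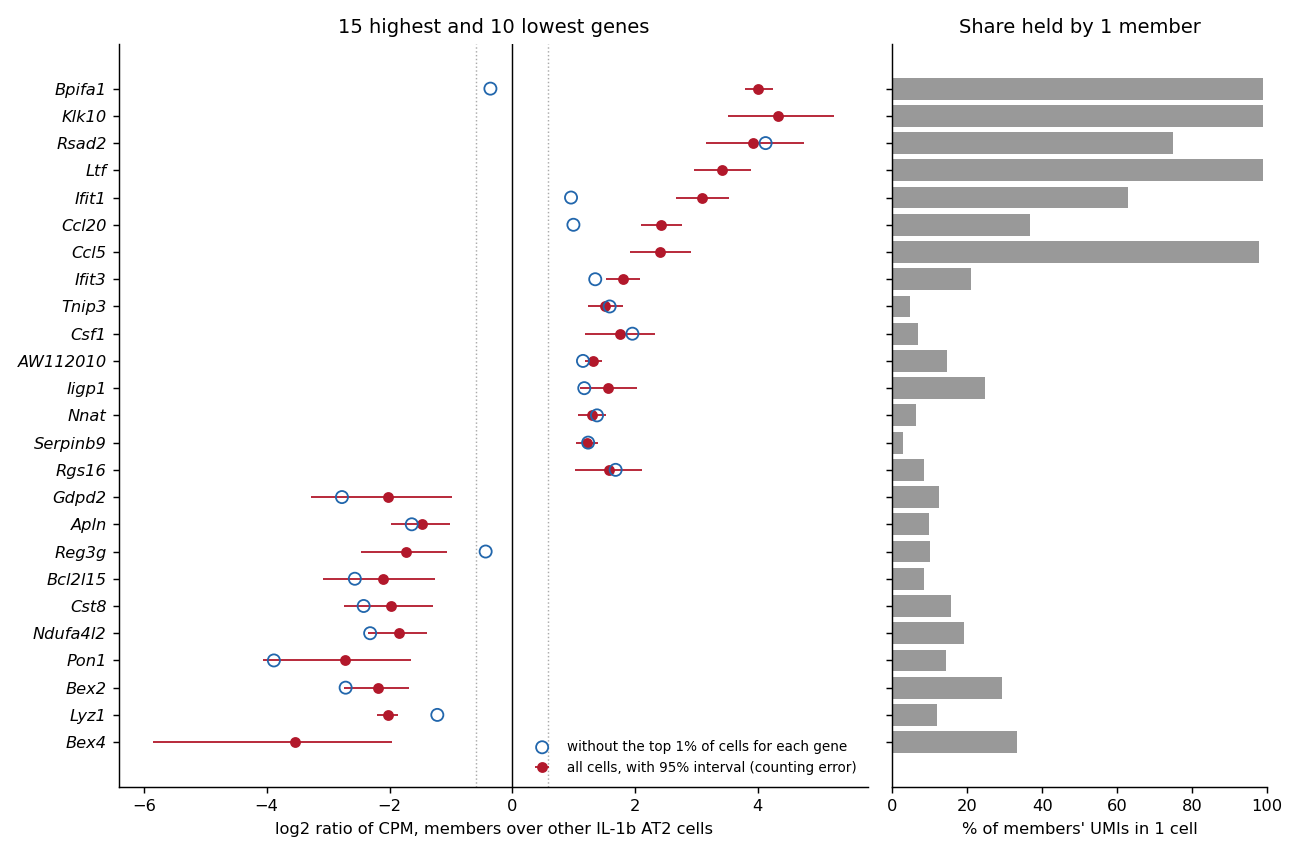
Left, log2 ratio of CPM between Cd14/Tnfaip2 cells and the other IL-1β AT2 cells (x axis) for the 15 highest and 10 lowest genes, with 95% counting intervals, and the same without the top 1% of cells for each gene (open circles; none for Klk10, Ltf and Ccl5, which had no UMI left, or for Bex4, which had none left in members). Right, percent of the members' UMIs of each gene held by 1 cell, which is 98.8% for Bpifa1, 98.0% for Ccl5 and 2.96% for Serpinb9; dotted lines mark 1.5-fold.

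Most of the 202 genes that were higher did not rest on single cells. Of these, 9 had most of their UMIs, or as many as in all other members, in 1 member, and 190 were still 1.5-fold higher when the top 1% of cells was left out for each gene. Ranked that way, in an order made after the values were seen, Tnip3, Nnat, Serpinb9, Slc26a4, AW112010, Cxcl5, Ifit3, Nfkbie and Cyr61 were among the first. Tnip3, whose product holds back NF-κB with TNFAIP3, was found in 102 members and stood at 41.6 CPM against 14.5 (ratio 2.86, 2.35 to 3.48). Serpinb9, the inhibitor of granzyme B, was found in 237 members at 94.1 against 40.4 CPM (2.33, 2.06 to 2.63). AW112010, an interferon- and endotoxin-responsive transcript, was found in 232 at 146 against 58.2 CPM (2.50, 2.26 to 2.76). Slc26a4, which encodes the anion exchanger pendrin, was found in 342 at 236 against 111 CPM (2.13, 1.97 to 2.30). Nnat, a small membrane protein gene, was at 57.5 against 23.5 CPM (2.45, 2.09 to 2.87). Csf1, the macrophage growth factor, was at 11.7 against 3.48 CPM (3.37, 2.28 to 5.01), and Rgs16, a brake on G-protein signaling, at 11.9 against 4.02 (2.97, 2.04 to 4.32). Csf1 and Rgs16 were not among the highest genes in the order without the top 1% of cells, and their spread over members is not given.

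Most of the NF-κB genes had a ratio above 1 in the Cd14/Tnfaip2 cells, a minority of them 1.5-fold. Of 20 NF-κB subunits and feedback genes with at least 100 UMIs, 19 had a ratio above 1, 4 were 1.5-fold higher and 0 were 1.5-fold lower, with a median log2 ratio of 0.41. Over all 9202 genes, 59.8% had a ratio above 1, 2.2% were 1.5-fold higher and 1.97% lower. The 4 were Tnip3, Nfkbie (12.9 against 5.25 CPM), an inhibitor of NF-κB, Zc3h12a (58.7 against 34.5), an RNase that degrades cytokine mRNA, and Birc2 (22.7 CPM, ratio 1.51), a ubiquitin ligase of TNF signaling. Nfkbia, the most immediate inhibitor, was at 365 against 282 CPM (ratio 1.29, 1.22 to 1.37). Of 21 NF-κB targets other than the rule's genes, 5 were 1.5-fold higher, 0 were lower and 16 had a ratio above 1 (median log2 ratio 0.26). The 5 were the adhesion molecule gene Icam1 (481 against 273 CPM, 1.76, 1.68 to 1.86), the neutrophil chemokine genes Cxcl5 (484 against 231, 2.09, 1.98 to 2.20) and Cxcl2 (76.0 against 48.8, 1.56, 1.37 to 1.77), Ccl20 and Csf2, which encodes GM-CSF (9.75 against 5.39, 1.81, 1.24 to 2.62). The neutrophil chemokine gene Cxcl1 did not follow them (212 against 205 CPM, ratio 1.03, 0.963 to 1.11). The acute-phase genes Lcn2 and Saa3 had ratios of 1.06 and 1.02.

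Interferon-induced genes gave a similar picture. Of 21 antiviral genes, 20 had a ratio above 1, 8 were 1.5-fold higher and 0 were lower, with a median log2 ratio of 0.52, beside 59.8% above 1, 2.2% higher, 1.97% lower and a median of 0.05 over all 9202 genes. The 8 were Rsad2, Ifit1, Ifit3 (47.3 against 13.6 CPM, 3.49, 2.88 to 4.23), Isg15 (70.4 against 33.6, 2.10, 1.83 to 2.41), Oasl2, Zbp1, Parp14 and Ddx58, the last encoding the RNA sensor RIG-I (29.2 against 19.1, 1.53, 1.25 to 1.88). Reads of the Ifit, Gbp and H2-Q genes, which have close copies, may be split between copies. Without the 12 members with Cxcl10, 6 of the 21 were 1.5-fold higher and the median was 0.46. Of 5 interferon-induced GTPases, 2 were higher, Iigp1 (16.1 against 5.46 CPM) and Gbp8 (11.9 against 5.05). Of 18 genes of MHC class I and the immunoproteasome, 0 were 1.5-fold higher or lower, but 16 had a ratio above 1 (median log2 ratio 0.34), such as B2m, the light chain of class I (1364 against 980 CPM, 1.39, 1.35 to 1.43), and the immunoproteasome gene Psmb10 (95.5 against 64.0, 1.49, 1.33 to 1.67). All 7 genes of MHC class II presentation measured had a ratio above 1 (median log2 ratio 0.24), and 0 reached 1.5-fold. Of 19 interferon receptor, STAT and IRF genes, 0 reached 1.5-fold.

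Against the other IL-1β AT2 cells, 1 AT1 gene was 1.5-fold higher, a count near the background, and 3 DATP genes were. Of 10 AT1 genes not in the rule, 9 had a ratio above 1 and 1, Ager, was 1.5-fold higher (median log2 ratio 0.43), beside 59.8% and 2.2% of all genes. Ager, a receptor on the AT1 surface, was at 774 CPM in members and 420 in the other IL-1β AT2 cells, against 5063 in the 341 epithelial cells over the AT1 limit and 895 in control AT2 cells. Of 14 DATP genes, several of them named by the study itself, 3 were higher, AW112010, the integrin subunit gene Itgb6 (26.3 against 12.2 CPM) and the keratin gene Krt7 (102 against 62.6). Of the 14, 10 had a ratio above 1, and the lowest were Gdf15, a stress-induced cytokine gene (19.9 against 27.4 CPM, ratio 0.725), and Ndrg1, a DATP marker of the study (16.5 against 22.7, 0.727), with 0 at 1.5-fold lower. The rule left 292 cells at the top of the Krt8 score out of the AT2 cells. In these, AW112010 was at 162 CPM, Itgb6 at 44.5 and Krt7 at 184, and in the cells over the AT1 limit at 702, 263 and 580. Cd14 and Tnfaip2 were not limited to the members either. Cd14 was at 722 CPM at the top of the Krt8 score, 457 over the AT1 limit, 890 in the 97 epithelial cells under the Sftpc limit and 165 in stromal cells, and Tnfaip2 at 102, 124, 338 and 109 CPM.

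**Figure D4:**
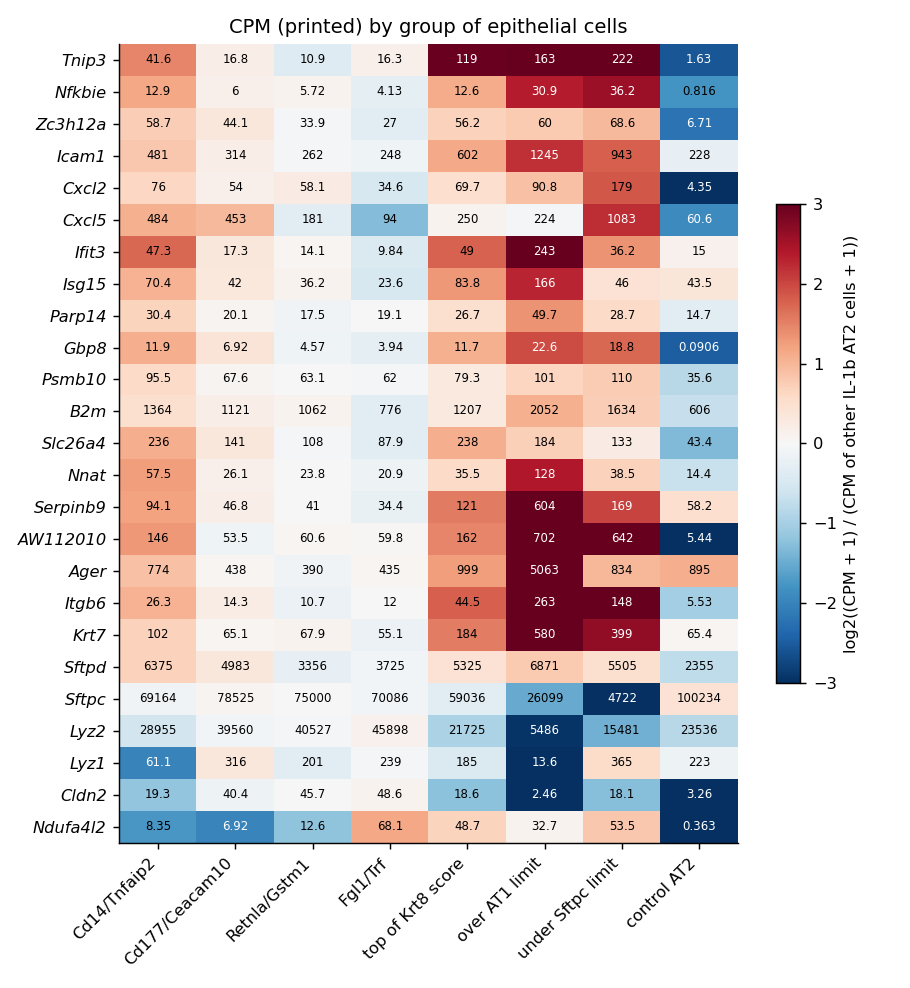
CPM of 25 genes (printed in each cell) in 8 groups of epithelial cells, colored by log2 of the ratio of CPM plus 1 to that of the other IL-1β AT2 cells plus 1. The genes were chosen after their values were seen; Ager (774 and 5063 CPM) and Serpinb9 (94.1 and 604) are redder in the cells over the AT1 limit than in the Cd14/Tnfaip2 cells, while Slc26a4 (236 and 184) and Cxcl5 (484 and 224) are not.

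The 10 lowest genes were Bex4, Lyz1, Bex2, Pon1, Ndufa4l2, Cst8, Bcl2l15, Reg3g, Apln and Gdpd2, of which Reg3g turned to a log2 ratio of 0.60 with Sftpc at least 5% of UMIs. Ndufa4l2, a hypoxia-induced mitochondrial protein gene, was at 8.35 CPM in members, 6.92 in the Cd177/Ceacam10 cells, 12.6 in the Retnla/Gstm1 cells and 68.1 in the Fgl1/Trf cells. Pon1, a lactonase gene, was at 1.39, 1.85, 4.38 and 20.5 CPM in the same order. Bex2 and Bex4, small proteins of 1 gene family whose reads may be hard to tell apart, were at 6.76 and 0.597 CPM in members, the latter from 3 UMIs, against 64.0 and 10.5 in the Retnla/Gstm1 cells. Without the top 1% of cells, Bex2 was at 2.42 CPM in members and 15.9 in all other IL-1β AT2 cells. Apln, the gene of the peptide apelin, was at 8.16 CPM in members and at 19.8, 18.3 and 29.7 in the others. Of 16 glycolysis genes, 3 had a ratio above 1 and 0 reached 1.5-fold either way (median log2 ratio -0.11), and of 19 immediate-early and heat shock genes 2 were higher, the Hsp70 genes Hspa1a (61.7 against 34.4 CPM) and Hspa1b, close copies of each other. Of 24 sterol and fatty acid genes, 17 had a ratio above 1 and 1, Dhcr7 of cholesterol synthesis, was 1.5-fold higher (36.4 against 22.4 CPM), shares near those of all genes (59.8% above 1 and 2.2% higher).

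Set against 1 group at a time, the members were 1.5-fold higher for 229 of 7306 genes (3.13%) and lower for 66 (0.903%) compared with the Cd177/Ceacam10 cells. Compared with the Retnla/Gstm1 cells they were higher for 201 of 7626 (2.64%) and lower for 109 (1.43%), and compared with the Fgl1/Trf cells higher for 216 of 7626 (2.83%) and lower for 177 (2.32%). Outside the rule's genes, 7243 genes had at least 100 UMIs in each of these comparisons, of which 49 (0.677%) were higher in all 3 and 15 (0.207%) lower in all 3. The 49 included Bpifa1, Ltf and Ccl5, held by single cells, and Ager, Icam1, Slc26a4, Serpinb9, Nnat, AW112010, Tnip3, Il18bp, the gene of the inhibitor of interleukin-18, and Cxcl16, the ligand of CXCR6. Cxcl5 was not among them, being at 484 CPM in members and 453 in the Cd177/Ceacam10 cells, but 181 and 94.0 in the other 2.

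**Figure D5:**
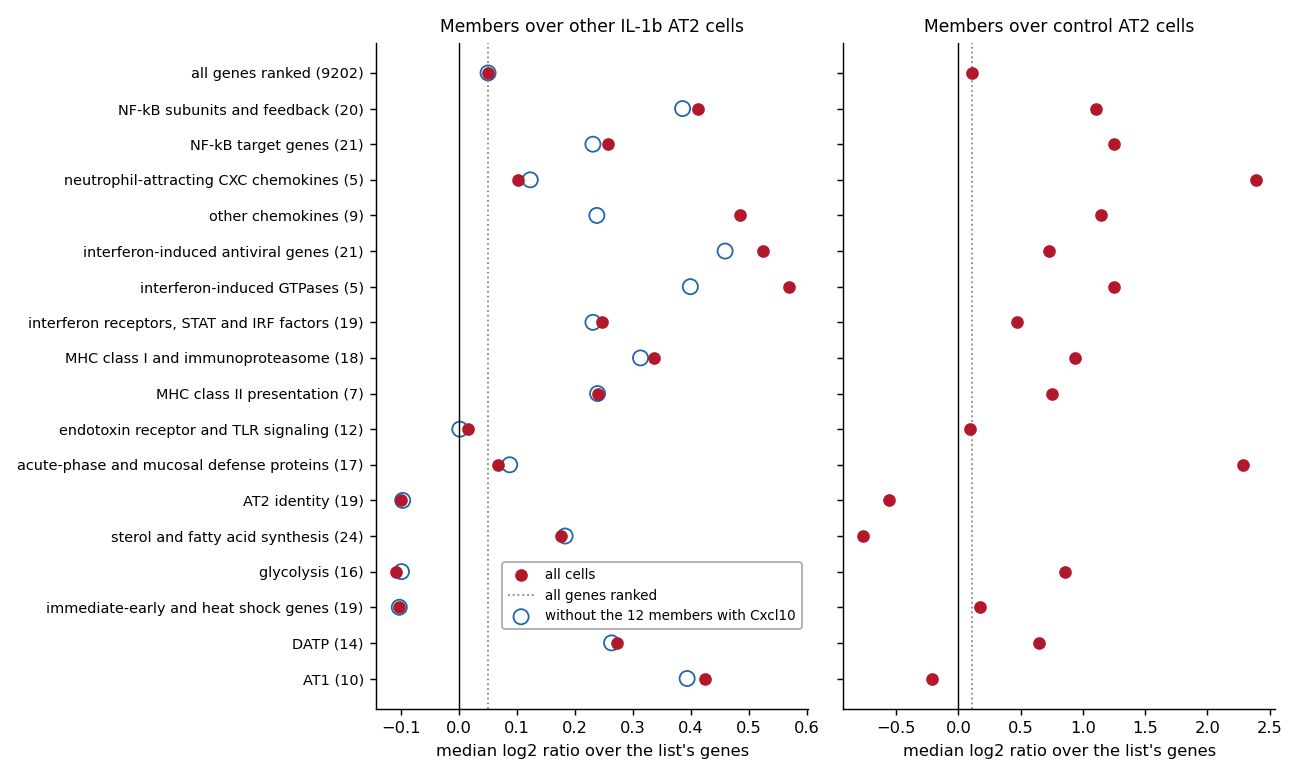
Median log2 ratio of CPM over the genes of each list (x axis) between Cd14/Tnfaip2 cells and the other IL-1β AT2 cells (left, filled, with open circles leaving out the 12 members with Cxcl10) and control AT2 cells (right); the number after each list is its genes with at least 100 UMIs on the left. Dotted lines mark all genes (0.05 and 0.11); NF-κB feedback lies at 0.41 and 1.11, interferon-induced antiviral genes at 0.52 and 0.73.

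Against control AT2 cells, 8649 genes had at least 100 UMIs, and 1375 (15.9%) were 1.5-fold higher and 747 (8.64%) lower in the Cd14/Tnfaip2 cells (median log2 ratio of all genes 0.11). When the total left out surfactant, mitochondrial and ribosomal protein genes, the numbers were 884 higher and 1151 lower and the median was -0.05, so the balance of higher and lower genes depended on this scaling. With the ratios centered on their median they were 1014 and 1020. Ribosomal protein genes took 13.5% of UMIs in members and 18.3% in control AT2 cells, and their part in these counts beyond that scaling was not tested. Ranked by the end of the interval nearest to 1, the highest were Scgb3a1, Bpifa1, Ltf, Neurl3, Pigr, Il4i1, Ccl20 and Ly6i. The first 3 were those of the single deep cell. Scgb3a1 and Ltf were at 0 in the control AT2 cells, and that cell held 601 of the members' 652 UMIs of the first and 188 of the 190 of the second, so no fold is given. Pigr, which carries IgA across epithelia, was at 204 CPM against 3.99 (51.2-fold, 37.9 to 70.9), Il4i1, a secreted amino acid oxidase gene, at 275 against 6.62 (41.5-fold, 32.8 to 53.3), Ly6i at 1444 against 47.0 and Neurl3, a ubiquitin ligase gene, at 38.4 against 0.0906. These 4 were within 1.5-fold of that level in the other IL-1β AT2 cells (243, 191, 1039 and 25.8 CPM). The lowest were Bex4, Bex2, Ube2c, Rrm2, Cst8, Igfbp2, Mlana and Arxes2, with Ube2c and Rrm2, genes of dividing cells, at 0.597 and 0.398 CPM against 27.4 and 22.4.

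By list, beside 15.9% of all genes higher and 8.64% lower, 15 of 19 NF-κB subunit and feedback genes were 1.5-fold higher than in control AT2 cells and 0 lower (median log2 ratio 1.11), 13 of 19 NF-κB targets (1.25), 16 of 21 interferon-induced antiviral genes (0.73), 15 of 18 genes of MHC class I and the immunoproteasome (0.94) and 12 of 14 acute-phase and mucosal defense genes (2.29). Among the antiviral genes, Rsad2 turned to a log2 ratio of -0.015 without the 12 members with Cxcl10, and Rsad2 and Ifit1 to -0.29 and -0.31 without the top 1% of cells for each gene. These counts are on the full total, and over all genes the total without surfactant, mitochondrial and ribosomal protein genes turned the balance to 884 higher and 1151 lower. In the other direction, 15 of 24 sterol and fatty acid genes were lower and 0 higher (-0.77), with Scd1, the stearoyl-CoA desaturase, at 5232 against 17919 CPM and the fatty acid synthase gene Fasn at 551 against 1545. Of 19 AT2 identity genes, 7 were lower, such as Abca3, the lamellar body lipid transporter (254 against 546 CPM), and Etv5, a transcription factor of AT2 cells (83.7 against 296), and 2, Sftpd and Ctsh, were higher. Whether these differences from control are larger in the Cd14/Tnfaip2 cells than in other IL-1β AT2 cells was not tested. The values of the 2 groups side by side were Nfkbia 365 and 282 CPM (78.1 in control), Relb 58.3 and 40.7 (10.2), Lcn2 19989 and 18908 (3564), and Scd1 5232 and 5503.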

How the data were processed

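The deposited matrices held UMI counts per gene and cell barcode that the authors made with Cell Ranger, 1 matrix per library, without normalization. The submitters' processing notes also name Scanpy 1.3.6 and the genome builds GRCm38 and mm9, without saying which step used which. The methods of the paper give GRCm38 for the Cell Ranger step. Counts were summed over the cells of a group, given as CPM with exact Poisson 95% intervals, and compared as ratios with exact conditional intervals. A gene was called higher or lower at a ratio of at least 1.5 either way among genes with at least 100 UMIs over both groups. Genes named were the 15 highest and 10 lowest against the other IL-1β AT2 cells, the 8 highest and 8 lowest against control, and up to 3 highest and 2 lowest of each list, ranked by the interval end nearest to 1, without rule, mitochondrial, ribosomal protein and predicted genes; others were named after their values were seen. The members and lists were chosen with earlier results of these data known. Shares of cells with a UMI were taken after thinning to 4500 UMIs, except those given as before thinning. The numbers of members with Cd14, Tnfaip2 or Cxcl10 were counted on all UMIs of a cell. Scrublet (in Scanpy 1.11.5) scored 3 of 5167 barcodes (0.0581%) over 0.7 and was taken as not having worked, so doublets remain. The scripts were tested on simulated data. Median depth per barcode was 11496.5 UMIs with IL-1β and 14613 in control. Some items are not reported here.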

Additional observations from a re-analysis of the deposited data

How the results depend on the processing

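With 1 library per condition, no replicate could be left out and intervals cover counting error only. No paired analysis was possible because each condition had 1 library. Requiring a lead of at least 0.5 gave a share of 16.2% of AT2 cells, with 342 genes higher and 282 lower than in the other IL-1β AT2 cells, and scoring without Cd14 a share of 23.2%. Leaving surfactant, mitochondrial and ribosomal protein genes out of the total gave 884 genes higher and 1151 lower than in control AT2 cells. A minimum of 20 UMIs gave 637 higher and 564 lower against the other IL-1β AT2 cells and 2341 and 1360 against control, a minimum of 300 UMIs gave 75 and 62, and 704 and 432, and a limit of 2-fold gave 42 and 48, and 506 and 277. The minimums and the fold move these counts by their own construction, and for the other settings the cause was not tested. Log2 ratios against the other IL-1β AT2 cells changed sign for the genes held by 1 member and for Reg3g. Bpifa1, Klk10, Ltf and Scgb3a1 were at -5.12, -5.34, -5.48 and -3.44 when Tnfaip2 was left out of the score, and at -2.39, -2.30, -3.16 and -2.75 below the top 30% of the Krt8 score. With Sftpc at least 5% of UMIs, Bpifa1 was at -0.31, Ltf at -0.40, Scgb3a1 at -0.053 and Reg3g at 0.60. The next alternatives were chosen after seeing the data. Without the cell with most Cxcl10, Ccl5 was at -3.23, and without the 12 members with Cxcl10 it was at -3.20 and Rsad2 was at -0.015 against control. Without that cell and the deepest member, Bpifa1, Klk10, Ltf, Ccl5 and Scgb3a1 were at -2.41, -2.25, -3.14, -3.22 and -2.53. Without the top 1% of cells for each gene, Bpifa1 was at -0.36, and against control Rsad2 was at -0.29 and Ifit1 at -0.31. All other counts over all genes under these alternatives were within 1.5 times those reported. In the lists, run only under the last 3 alternatives, the interferon-induced antiviral genes had 6 higher in place of 8 without either set of cells, other chemokines 2 in place of 3, with 1 lower, and acute-phase and mucosal genes 1 in place of 2 and 3 lower in place of 2 without both cells, while the 1 higher gene of the airway list and that of the neutrophil list, Scgb3a1 and Ltf, were lower without both cells and not called without the top 1%. Without the top 1% of cells, the MHC class I (also without both cells), TNF receptor, DATP and NF-κB feedback lists each gained 1 higher gene, and the DATP and NF-κB target lists 1 lower gene. NF-κB feedback had 3 higher in place of 4 without the 12 members with Cxcl10. Other chemokines also had 2 higher, with 0 lower, without the top 1% of cells, and acute-phase and mucosal genes 1 higher and 2 lower.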

Other observations

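Further gene lists were measured in the Cd14/Tnfaip2 cells against the other IL-1β AT2 cells, where 2.2% of all 9202 genes were 1.5-fold higher and 1.97% lower, so that 1 gene of a list is near the background. Of 9 chemokines other than the neutrophil-attracting ones, 3 were 1.5-fold higher (Ccl5, Ccl20 and Cxcl16, the last at 87.5 against 54.0 CPM) and 0 lower, with a median log2 ratio of 0.48, or 0.24 without the 12 members with Cxcl10. Of 9 inflammatory cytokines and growth factors, 2 were higher (Csf1 and Csf2) and 0 lower (median 0.35). Of 8 TNF receptor family genes and 11 complement genes, 0 reached 1.5-fold, with medians of 0.15 and 0.22. Of 15 antioxidant genes outside the rule, 1 was lower, Nqo1, a quinone reductase gene (2.78 against 6.68 CPM). Of 17 acute-phase and mucosal defense genes, 2 were higher, Steap4 (79.2 against 50.1 CPM) and Bpifa1 of the single deep cell, and 2 were lower, the orosomucoid gene Orm1 (45.2 against 78.0 CPM) and Reg3g, a secreted lectin gene (3.98 against 13.2, but a log2 ratio of 0.60 with Sftpc at least 5% of UMIs). Of the IL-1 family and its receptors, 2 genes had at least 100 UMIs and 0 reached 1.5-fold.

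Against control AT2 cells, where 15.9% of all 8649 genes were 1.5-fold higher and 8.64% lower, a balance that turned with another scaling (884 higher, 1151 lower), 11 of 15 glycolysis genes were 1.5-fold higher and 0 lower (median log2 ratio 0.86), 8 of 8 cycling genes were lower (-3.36), 7 of 13 DATP genes were higher and 2 lower (0.64), and 3 of 11 AT1 genes were higher and 3 lower (-0.21). The Krt8 limit was lower in control (0.573 against 0.906), and its part in the DATP counts was not tested. Of 7 genes that the study names for primed AT2 cells, 6 were higher and 0 lower than in control. Against the other IL-1β AT2 cells, 0 of these 7 were higher and 1 was lower (median log2 ratio 0.056), beside 2.2% and 1.97% of all genes.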
